A study of Mus musculus with 2 samples.

Results

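The genes described here are 9 genes of transforming growth factor beta (TGF-beta) signalling in the mouse ureter at postnatal day 4. They are the ligands Tgfb1, Tgfb2 and Tgfb3, the activin subunit Inhba, the receptors Tgfbr1, Tgfbr2 and Tgfbr3, the SMAD corepressor Skil and the target Tgfbi. They were chosen by the gene name printed for each probe, which gave 15 probes of 39429 on the array. All 9 genes, with 14 of the 15 probes, were bright enough to be tested, among 21143 tested genes in all.

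Total RNA of NMRI ureters was compared on 2 two-colour arrays, each holding an RNA of Tbx18(cre/+);Rbpj(fx/fx) pups, called Rbpj-cKO, beside a control RNA. The controls were Tbx18(+/+) and carried 1 floxed Rbpj allele, with the other allele given as n.d., so they also differed from the Rbpj-cKO pups in the Tbx18 allele that carries cre. Cre is driven from the Tbx18 locus, which is active in the mesenchyme around the ureteric epithelium, so Rbpj would be lost in mesenchymal derivatives and not in the epithelium. Array 1 held the pair labelled female, with Rbpj-cKO labelled by the red dye, and array 2 the pair labelled male, with the dyes exchanged. The labels do not say how many pups stand behind an RNA, so SDs and p-values measure only the spread between these 2 pairs. The labelled sex, the dye orientation and the pair all differ between the arrays and cannot be told apart.

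TGF-beta ligands are secreted in a latent complex that is anchored in the matrix and is released by integrins and proteases. The active ligand joins the type II receptor Tgfbr2 with the type I receptor Tgfbr1, which phosphorylates SMAD2 and SMAD3, and these enter the nucleus with SMAD4. In mesenchyme the pathway is known for inducing matrix genes and genes of smooth muscle contraction. Rbpj encodes the transcription factor that Notch receptors act through.

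Values are given as a log2 ratio (Rbpj-cKO divided by control) or as a normalized log2 level of 1 RNA, and a level is compared only between RNAs on the same probe. Between 71.8% and 74.0% of gene spots were well above background in each dye and array, and no spot was saturated. The ratio of the targeted gene Rbpj averaged -1.01 ± 0.13 (SD, n = 2, limma adjusted p = 0.0873), from -0.92 and -1.10. The position of its probe relative to the floxed exons was not examined. The Rbpj-cKO RNA of array 1 goes against its label in part, since the ratios there were 4.23 for Ddx3y and 4.26 for Eif2s3y, both Y-linked, in a pair labelled female. Its level of Ddx3y was 11.31, between 7.08 in its control and 12.92 to 13.46 in the pair labelled male. Xist, the transcript of the inactive X chromosome, was as high in it (12.96) as in its control (12.82), against 6.42 and 6.41 in the pair labelled male, so this RNA held transcripts of both sexes. The values of each array are therefore given separately. Markers of smooth muscle (10 of 10) and urothelium (10 of 10) were measured. So were those of adipocytes (13 of 13) and liver (10 of 12), so these counts do not identify the tissue. In RNA of a whole organ, fewer cells of a type and less RNA per cell cannot be told apart.

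The probes of 3 ligands are shown so that a reader can see what was hybridised and how alike the probes of related ligands are. The files place the Tgfb1 probe on the plus strand of chr7:26489877-26489936 and the Tgfb2 probe on the minus strand of chr1:188449333-188449392 (mm9). The Inhba probe lies on the plus strand of chr13:16118634-16118693. Capitals in the Tgfb1 and Tgfb2 probes mark the bases that are identical when the pair is aligned without gaps, 28 of 41 overlapping bases (68.3%).
Tgfb1: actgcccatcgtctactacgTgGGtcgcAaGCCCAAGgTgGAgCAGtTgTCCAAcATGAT
Tgfb2: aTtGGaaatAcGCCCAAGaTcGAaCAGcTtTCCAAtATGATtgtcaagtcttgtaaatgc
Inhba: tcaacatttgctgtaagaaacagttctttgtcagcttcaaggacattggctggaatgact

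None of the 9 genes differed between Rbpj-cKO and control ureters by the test over all genes. Limma, tested two-sided against a ratio of 0 with Benjamini-Hochberg adjustment over all 21143 genes, called 0 of the 9, where it called 0.00473% of all genes (1 gene, lower). At an unadjusted p under 0.05 it also gave 0 of the 9, where 14% of all genes passed. The lowest adjusted p was 0.366, for Inhba. By size, 0 of the 9 were at least 1.5-fold changed in the same direction on both arrays, which 1.2% of all genes were (85 higher and 168 lower). In opposite directions by that size there were also 0 of the 9, against 0.104% of all genes. With the scanner's own log ratio, 243 genes were at least 1.5-fold higher on both arrays and 264 at least 1.5-fold lower. The mean ratios of the 9 ran from -0.21 for Tgfb1 to 0.13 for Tgfbr1.

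The intervals inside 1.5-fold were also counted, and their share among the 9 genes was near that of all genes. The 95% confidence interval of the mean ratio lay inside 1.5-fold in both directions for 9 of the 9 genes, where 90% of all genes had such an interval. The widest interval was that of Tgfbi, from -0.25 to 0.34, and the lowest bound was that of Tgfbr3, at -0.48. These intervals rest on 1 residual degree of freedom, raised to 4.35 by the prior across genes, and are not adjusted for the number of genes. The count was chosen after the values were seen. Values from the authors' deposited table put 8 of 9 intervals inside, because that of Tgfb2 reached -0.61.

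**Figure D1:**
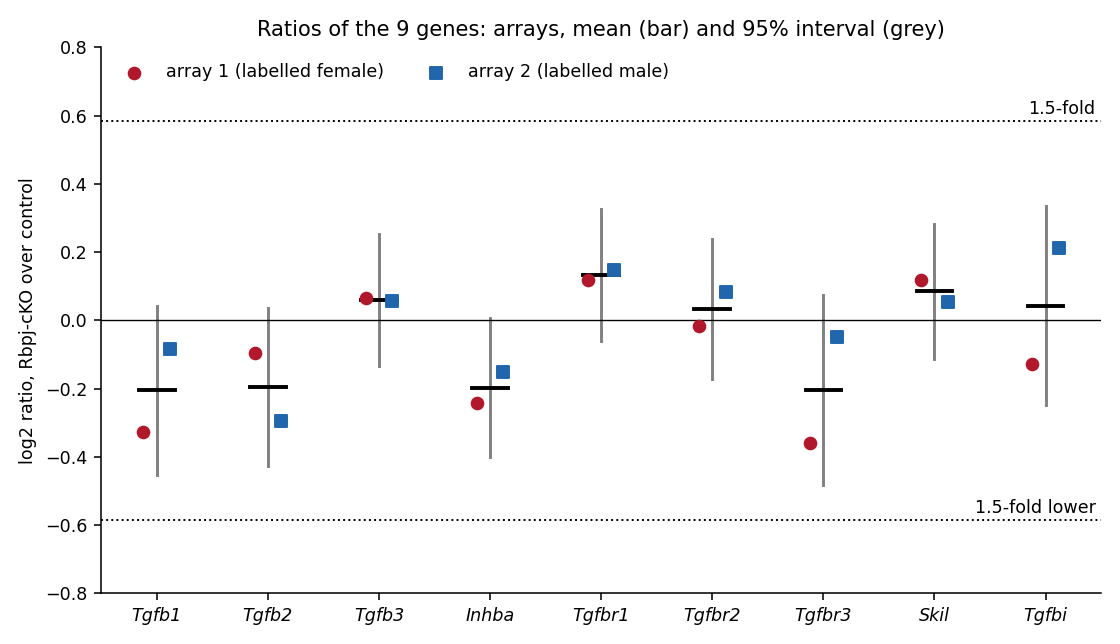
Log2 ratio of Rbpj-cKO over control (vertical axis) for the 9 genes, with array 1 as circles, array 2 as squares, the mean as a black bar and the 95% interval of the limma fit in grey. All 9 intervals stay between the dotted lines at 1.5-fold and include 0, and Tgfbi and Tgfbr2 have an array on each side of 0.

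By sign alone, 3 genes were higher on both arrays (Tgfb3, Tgfbr1 and Skil), where 31.7% of all genes were. Another 4 were lower on both (Tgfb1, Tgfb2, Inhba and Tgfbr3), where 29.8% of all genes were. The other 2, Tgfbr2 and Tgfbi, had opposite signs, as 38.5% of all genes had. Ranked by mean ratio from the lowest, the order was Tgfb1, Tgfbr3, Inhba, Tgfb2, Tgfbr2, Tgfbi, Tgfb3, Skil and Tgfbr1. All 9 intervals overlapped, and differences between genes were not tested.

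Among the ligands, Tgfb1 encodes the isoform best known from blood cells, vessels and scarring tissue. Its level was 10.08 in the control and 9.75 in the Rbpj-cKO RNA of array 1, and 10.03 and 9.95 on array 2. The Rbpj-cKO RNA was thus lower in each pair, and the lowest level was that of the Rbpj-cKO RNA of array 1. The ratios were -0.33 and -0.08, with a mean of -0.21 ± 0.17 (SD, n = 2, limma adjusted p = 0.431), a fold of 0.867 with a 95% interval from 0.730 to 1.03. The SD over the spots of the probe was 0.05 on array 1 and 0.04 on array 2, smaller than the gap between the arrays.

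Tgfb2 encodes an isoform made by mesenchyme and epithelium of many developing organs. Its level was 13.35 in the control and 13.26 in the Rbpj-cKO RNA of array 1, against 13.66 and 13.37 on array 2. The control RNA of array 2 stood above the other 3 RNAs. The ratios were -0.10 and -0.29, with a mean of -0.20 ± 0.14 (limma adjusted p = 0.423) and a fold of 0.873 (95% interval 0.743 to 1.03). A dimmer Tgfb2 probe, further 3′ in the transcript at chr1:188447534-188447593, gave -0.06 and -0.16, the same signs at smaller size. Unlike Tgfb1, Tgfb2 had the larger difference on array 2.

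Tgfb3, the remaining isoform, is known from epithelial fusion and from smooth muscle and mesenchyme. It had the closest pair of ratios, 0.06 on array 1 and 0.06 on array 2 (SD 0.0062). Its levels were 13.87 and 13.94 for control and Rbpj-cKO on array 1, and 13.91 and 13.96 on array 2. Within each array the Rbpj-cKO RNA was the higher of the pair (mean fold 1.04, 95% interval 0.911 to 1.19, limma adjusted p = 0.795).

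Inhba encodes the beta-A subunit of activin A, a ligand that acts through activin receptors and the same SMADs. Its levels were 10.19 and 9.95 for control and Rbpj-cKO on array 1, and 10.48 and 10.33 on array 2. Both RNAs of array 2 lay above both RNAs of array 1, and within each array the Rbpj-cKO RNA was lower. The ratios were -0.24 and -0.15, with a mean of -0.20 ± 0.07 (fold 0.872, 95% interval 0.758 to 1.00, limma adjusted p = 0.366).

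**Figure D2:**
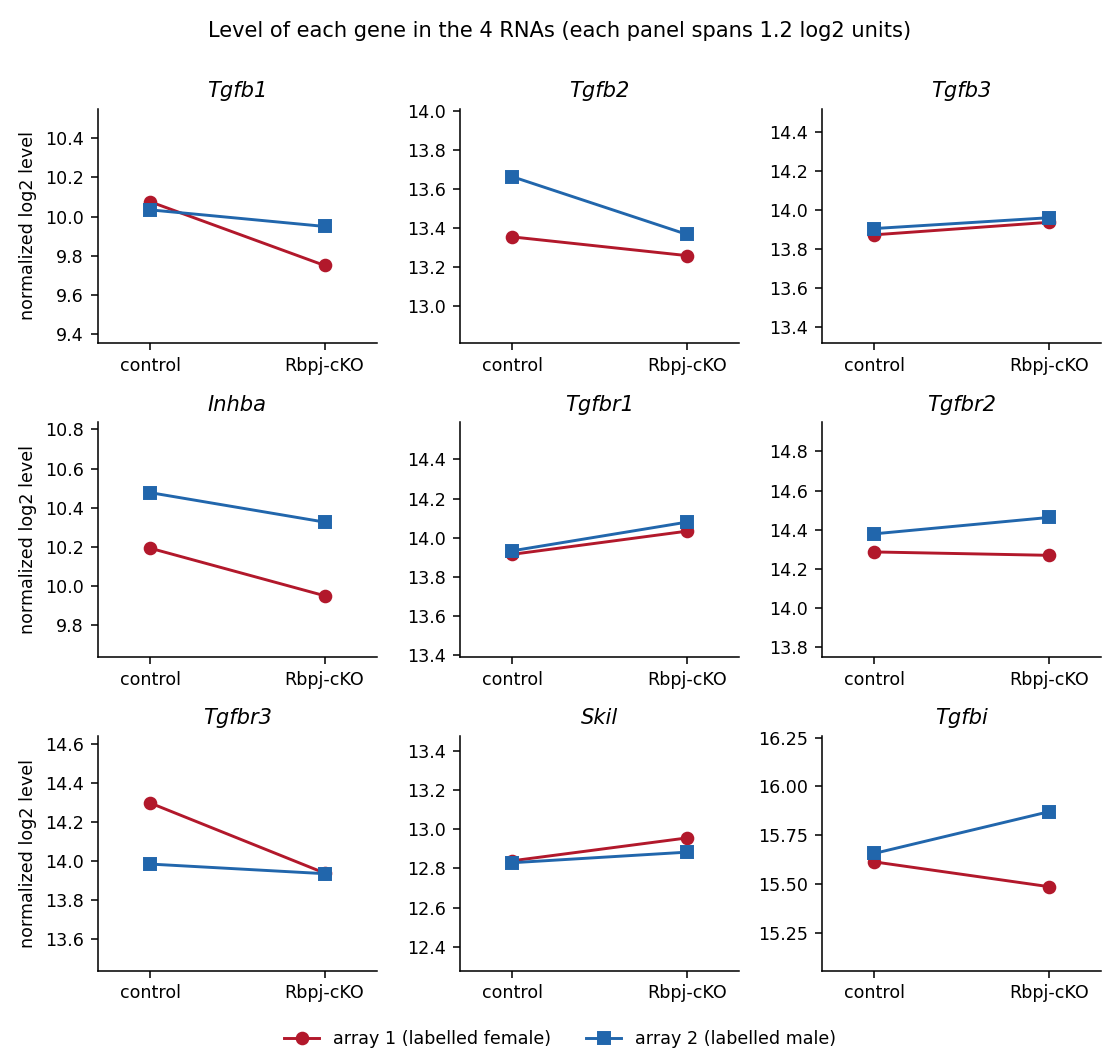
Normalized log2 level (vertical axis, each panel spanning 1.2 units) of each gene in the control and Rbpj-cKO RNA, with array 1 as red circles and array 2 as blue squares, joined within an array. Both lines slope up for Tgfb3, Tgfbr1 and Skil and down for Tgfb1, Tgfb2, Inhba and Tgfbr3, with slopes from 0.05 to 0.36 in size, and the lines of Tgfbr2 and of Tgfbi go opposite ways.

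Of the receptors, Tgfbr1 encodes the type I kinase ALK5 that phosphorylates the receptor SMADs. Its levels were 13.91 and 14.03 for control and Rbpj-cKO on array 1, and 13.93 and 14.08 on array 2. Both Rbpj-cKO RNAs lay above both control RNAs. The ratios were 0.12 and 0.15, with a mean of 0.13 ± 0.02 and a fold of 1.10 (95% interval 0.958 to 1.25, limma adjusted p = 0.509). The spots of this probe had an SD of 0.03 on array 1 and 0.05 on array 2, close to the gap between the arrays.

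The 4 probes of Tgfbr1 did not all give these signs. A probe 2790 bases upstream in the same RefSeq transcript gave 0.16 on array 1 and -0.06 on array 2. Another probe, which the files list under an Ensembl transcript and not under the RefSeq mRNA, gave 0.14 and 0.07. The last, also listed under an Ensembl transcript only, was not well above background in any RNA and was left out.

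Tgfbr2 encodes the type II receptor that binds the ligand first. Its levels were 14.29 and 14.27 for control and Rbpj-cKO on array 1, and 14.38 and 14.46 on array 2, so both RNAs of array 2 lay above both of array 1. The ratios were -0.02 and 0.08, with a mean of 0.03 ± 0.07 and a fold of 1.02 (95% interval 0.888 to 1.18, limma adjusted p = 0.90). A dimmer probe gave 0.09 and -0.01, with the signs exchanged. With median centring in place of loess the mean was -0.0075, so its sign depended on the normalization.

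**Figure D3:**
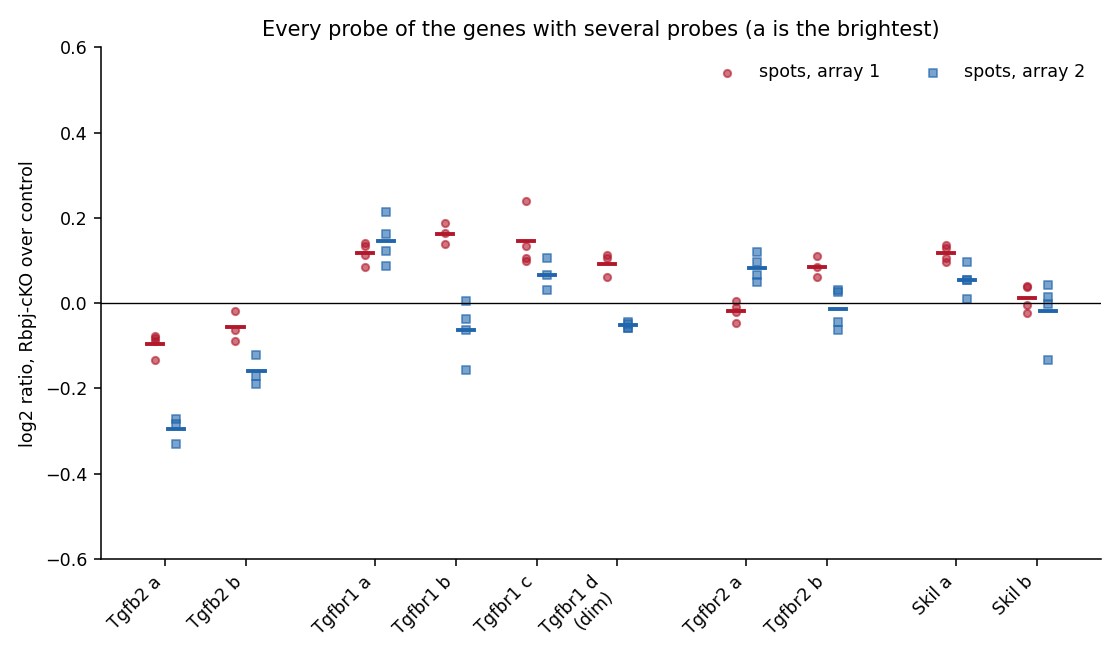
Log2 ratio of spots (points) and of every probe (bars) for Tgfb2, Tgfbr1, Tgfbr2 and Skil on array 1 (red circles) and array 2 (blue squares). Spots with an outlier flag are not shown. The probes of a gene are lettered from the brightest. Both Tgfb2 probes lie below 0 on both arrays, whereas Tgfbr1 b and d, Tgfbr2 a and b, and Skil b have an array on each side of 0. Tgfbr1 d is the dim probe that was left out.

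Tgfbr3 encodes betaglycan, a co-receptor without kinase activity that presents TGF-beta 2 and inhibin. Its levels were 14.30 and 13.94 for control and Rbpj-cKO on array 1, and 13.98 and 13.94 on array 2. The control RNA of array 1 stood apart from the other 3, which lay close together. The ratios were accordingly -0.36 and -0.05, with a mean of -0.20 ± 0.22 (fold 0.868, 95% interval 0.716 to 1.05, limma adjusted p = 0.480). Without array 1 the ratio was -0.05. Tgfb1 had the same unequal sizes, with -0.08 without array 1.

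Some lists of cell type markers, among them those of adipocytes, endothelium and pericytes, had their lower medians on array 1, and others did not. The 13 measured adipocyte markers were all lower on both arrays, with medians of -2.63 on array 1 and -1.0 on array 2, and the log2 of their summed level was 19.67 and 18.34 in the control RNAs against 17.29 and 17.44 in the Rbpj-cKO RNAs. By comparison, 29.8% of all genes were lower on both arrays. Of 10 endothelium markers 7 were lower on both arrays, with medians of -0.22 and -0.10. Of 8 pericyte markers 6 were lower on both arrays, with medians of -0.40 and -0.33. The largest mean ratios of these lists were those of Cfd (-3.47) and Ucp1 (-2.74, the 1 gene called by limma), of Cldn5 (-0.53) and Kdr (-0.38), and of Kcnj8 (-0.70) and Pdgfrb (-0.64). Their part in the ratios of Tgfb1 and Tgfbr3 was not tested. Skeletal muscle (-0.23 and -0.14) and leukocyte (-0.14 and 0.05) markers had the lower median on array 1 too. Smooth muscle markers (-0.23 and -0.35) and liver markers (0.55 and -2.68) had it on array 2. Urothelium (0.42 and 0.08), fibroblast (0.21 and 0.12), kidney (1.00 and 0.25) and mesothelium markers (0.55 and 0.10) had medians above 0 on both arrays. Those medians were smaller on array 2. Erythroid markers were nearly equal (-0.22 and -0.23).

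Inside the cell, Skil encodes SnoN, a corepressor that binds SMADs and is itself a rapid transcriptional target of the pathway. Its levels were 12.84 and 12.96 for control and Rbpj-cKO on array 1, and 12.83 and 12.88 on array 2, so both Rbpj-cKO RNAs lay above both control RNAs. The ratios were 0.12 and 0.05 (mean 0.09 ± 0.04, fold 1.06, 95% interval 0.925 to 1.22, limma adjusted p = 0.691). A much dimmer Skil probe, 4813 bases upstream on the chromosome, gave 0.01 and -0.02.

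Tgfbi, named for its induction by TGF-beta, encodes a secreted matrix protein that binds collagen and integrins. It had the largest gap between the arrays among the 9. Its levels were 15.61 and 15.49 for control and Rbpj-cKO on array 1, and 15.66 and 15.87 on array 2. The Rbpj-cKO RNA was the lowest of the 4 on array 1 and the highest on array 2. The ratios were -0.13 and 0.21, with a mean of 0.04 ± 0.24 and a limma adjusted p of 0.911. The SD over its spots was 0.04 on array 1 and 0.03 on array 2, far below that gap.

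**Figure D4:**
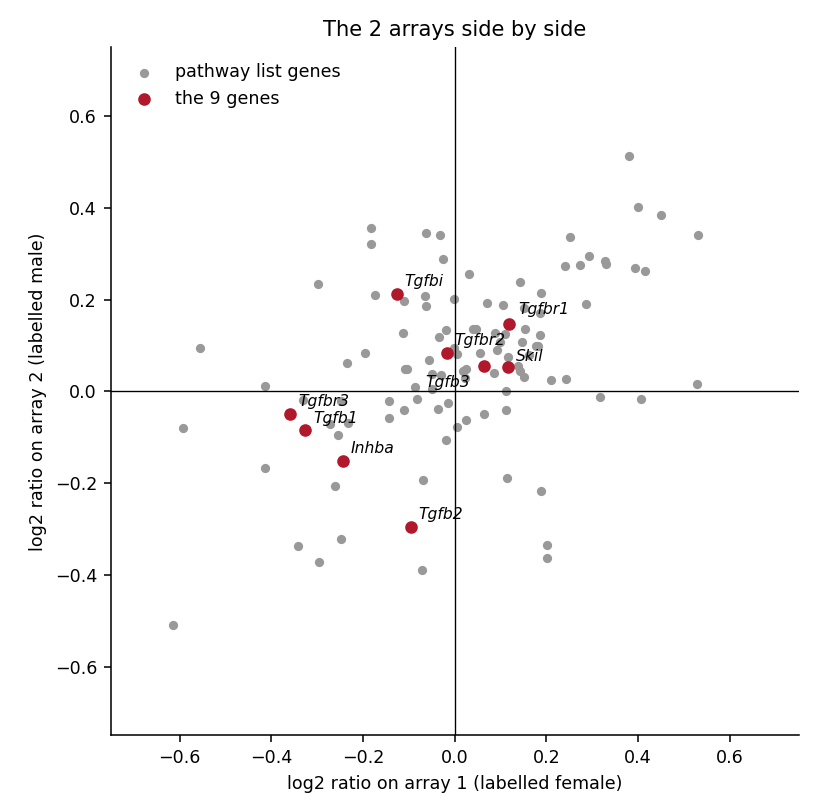
Log2 ratio on array 1 (horizontal axis) against array 2 (vertical axis) for the 9 genes (red) and the pathway list genes (grey), without Acvr1c, Spp1 and Plg, which lie outside the axes. Tgfb1 and Tgfbr3 lie further from 0 along the axis of array 1, Tgfb2 along that of array 2, and Tgfbi lies in the quadrant of opposite signs.

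Beyond the 9 genes, 6 lists of the pathway held 112 other gene symbols. Of these, 110 were on the array and 106 were measured. Limma called 0 of the 106, as did each of the 12 other settings that allow a test, while 14 were higher and 7 lower at an unadjusted p under 0.05 (6.98% and 7.02% of all genes). On both arrays 45 of these genes were higher (42.5%, against 31.7% of all genes), and 22 lower (20.8%, against 29.8%). With median centring these were 30 and 24 of 106, against 24.2% and 31.9% of all genes. The median ratio was 0.06, against -0.00 for all genes, and 95 of the 106 had intervals inside 1.5-fold (90% of all genes). The lists overlap in a few genes, such as Lefty2 and Thbs1.

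Among 11 measured ligands of the wider family, 4 were higher and 4 lower on both arrays, against 31.7% and 29.8% of all genes. Their median was -0.02. Gdf10, also called BMP3B, had 0.33 on array 1 and 0.28 on array 2 (mean 0.31 ± 0.03, limma adjusted p = 0.241). Lefty2, a secreted antagonist of Nodal, had 0.25 and 0.34. Inhbb, the beta-B subunit of activins, went the other way with -0.59 and -0.08 (mean -0.34 ± 0.36, limma adjusted p = 0.405), again with the larger difference on array 1.

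The latent complex and its activators showed no common direction, with a median of 0.04. On both arrays 7 of 22 were higher and 5 lower, against 31.7% and 29.8% of all genes. Ltbp1, a latent TGF-beta binding protein that ties the complex to the matrix, had 0.33 and 0.28 (mean 0.30 ± 0.04, limma adjusted p = 0.245). A second, far dimmer Ltbp1 probe gave 0.02 and -0.14. Mmp9, a protease that can release the ligand, had levels of 9.29 and 8.67 for control and Rbpj-cKO on array 1, and 9.20 and 8.69 on array 2. Both Rbpj-cKO RNAs lay below both controls, with a mean ratio of -0.56 ± 0.07 and the lowest adjusted p of the 106 genes in limma (0.136). Plg, the plasminogen gene of the liver, had 0.36 and -2.42. The 10 measured liver markers also had opposite signs on the 2 arrays (38.5% of all genes), with medians of 0.55 and -2.68. Their largest means were those of Afp (-1.60) and Fgg (-1.32), and their part in the ratio of Plg was not tested.

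Of 18 extracellular antagonists and co-receptors 8 were higher and 4 lower on both arrays, against 31.7% and 29.8% of all genes. Their median was 0.12. Lum, a matrix proteoglycan of fibroblasts, had 0.53 and 0.34 (mean 0.44 ± 0.13, limma adjusted p = 0.199). Fstl3, a follistatin-like protein that binds activins, had 0.41 and 0.26. Aspn, asporin, a proteoglycan that can bind TGF-beta 1, had -0.34 on each array (SD 0.0027, limma adjusted p = 0.213). Lum and Dcn are also on the list of fibroblast markers, of which limma called 0 of 10 (lowest adjusted p 0.159). Before adjustment, 4 of the 10 were higher at a limma p under 0.05 and 0 lower, against 6.98% and 7.02% of all genes. Of these 10 markers 8 were higher on both arrays (31.7% of all genes), 0 were lower, the median was 0.17, the largest means were those of Pdgfra (0.47) and Lum, and the log2 of the summed level was 19.47 and 19.54 in control against 19.73 and 19.70 in Rbpj-cKO RNAs. Their part in these ratios was not tested.

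Among 6 activin and ALK receptors 5 had mean ratios between 0.04 and 0.17. The exception was Acvr1c, which encodes ALK7, a receptor known from fat. Its levels were 12.72 and 8.77 for control and Rbpj-cKO on array 1, and 11.12 and 9.80 on array 2, so both Rbpj-cKO RNAs lay below both controls. The ratios were -3.95 and -1.32 (mean -2.64 ± 1.86, limma adjusted p = 0.246), and only 0.0473% of all genes had a mean ratio at least as far from 0. A second Acvr1c probe gave -4.06 and -1.30. The adipocyte medians of -2.63 and -1.0 stood beside it in the same RNAs, and their part in its ratio was not tested.

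The SMADs and their regulators stayed closest to 0, with all 18 means between -0.17 and 0.13. Inside 1.5-fold lay 18 of 18 intervals, against 90% of all genes. On both arrays 10 were higher and 4 lower, against 31.7% and 29.8% of all genes. With median centring 5 were higher, against 24.2% of all genes. Smad3, the SMAD through which many TGF-beta targets are switched on, had 0.15 and 0.11, and Smad6, an inhibitory SMAD, 0.16 and 0.08. Pmepa1, a target that feeds back on SMADs, had -0.33 and -0.02 (mean -0.17 ± 0.22, limma adjusted p = 0.547), with its second probe at -0.32 and -0.01.

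Textbook targets of TGF-beta were more often higher than lower. Of 37 measured, 17 were higher on both arrays (45.9%, against 31.7% of all genes) and 5 were lower (13.5%, against 29.8%). The median was 0.09, and 32 had an interval inside 1.5-fold, against 90% of all genes. The count of higher genes depended on the normalization. Median centring left 9 of 37 higher and 5 lower, against 24.2% and 31.9% of all genes. None of the 37 (0 genes) passed in limma over all genes, and 8 were higher and 2 lower at an unadjusted p under 0.05. Of all genes, 6.98% were higher and 7.02% lower by that cut.

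Spp1, osteopontin, had the largest mean of the list, 0.51 ± 2.37 (limma adjusted p = 0.849), from 2.19 and -1.17. Lox, the enzyme that cross-links collagen and elastin, had 0.38 and 0.51 (mean 0.45 ± 0.09, limma adjusted p = 0.180), and its second probe gave 0.44 and 0.33. Nox4, an oxidase induced in fibroblasts, had levels of 11.41 and 11.86 on array 1 and 11.46 and 11.85 on array 2, a ratio of 0.45 and 0.38. Its dimmer probes gave means of 0.37 and 0.21. The others of the 8 higher genes, named after their values were seen, were Ccn2, Cdkn1a, Timp1, Fn1, Col3a1 and Postn, with means from 0.20 to 0.40. The 2 lower were Timp3, an inhibitor of metalloproteinases, with -0.33 ± 0.06, and Tsc22d1 with -0.23 ± 0.04.

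The 4 targets that are also fibroblast markers had means of 0.24 (Col3a1), 0.20 (Postn), 0.14 (Col1a1) and 0.13 (Col1a2), of which Col1a1 had opposite signs (-0.06 and 0.35). The 3 that are also smooth muscle markers had -0.07 (Tagln), -0.08 (Acta2) and -0.23 (Cnn1), and the first 2 of these had 0.20 each on array 1 and -0.34 and -0.36 on array 2. On array 1 Tagln and Acta2 thus lay above Postn (0.19) and Col1a1, and a difference between both sets of genes was not tested. Over all 10 smooth muscle markers 8 were lower and 0 higher on both arrays, against 29.8% and 31.7% of all genes. Their median was -0.24, with the largest means in Synm (-1.13) and Des (-0.74). Pericyte markers, with 6 of 8 lower on both arrays (29.8% of all genes), had medians of -0.40 and -0.33. The part of these cell types in the ratios of the targets was not tested. Smad7, an inhibitory SMAD that the pathway induces, had 0.09 and 0.13. These targets were named after their values were seen.

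**Figure D5:**
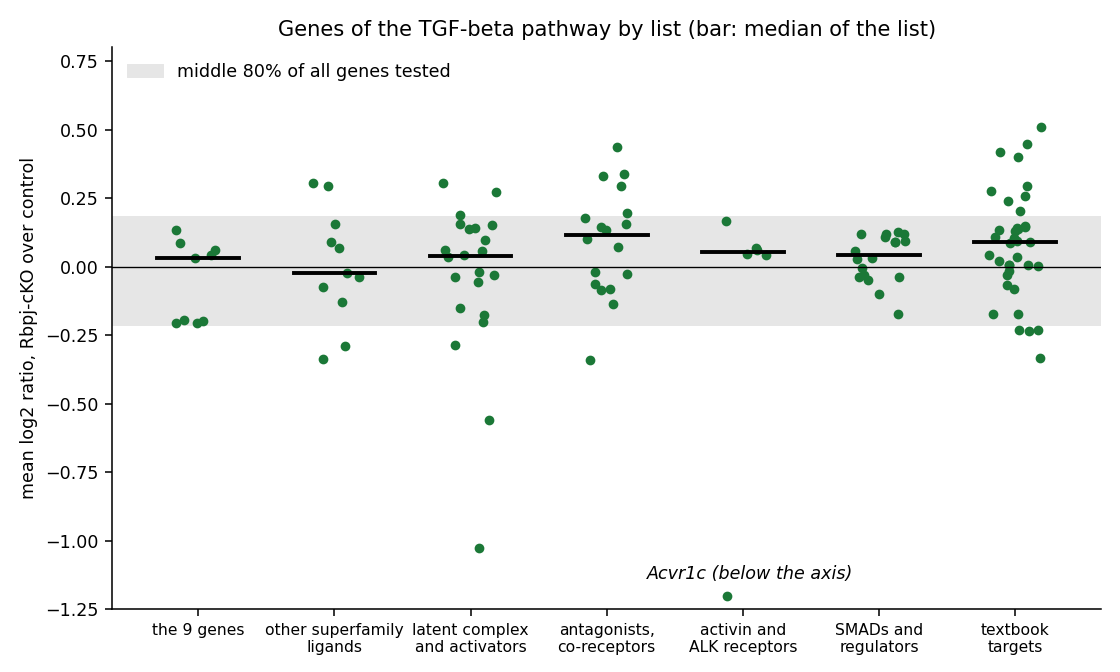
Mean log2 ratio (vertical axis) of every measured gene in the 9 genes and the 6 pathway lists, with list medians as black bars and the middle 80% of all genes tested as a grey band from -0.21 to 0.18. The SMADs lie within the band, most targets lie above 0, and Acvr1c, at -2.64, is below the axis.

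The promoters given by RefSeq (GRCm38.p6) covered 6 of the 9 genes with 7 starts and were searched over the 250 bases before each start, on both strands. The RBPJ core TGGGAA was in 0 of the 7, and in 21.6% of all 32851 promoters. The SMAD box CAGAC was in 4 of the 7 (those of Tgfb2, Tgfbi, Tgfbr2 and 1 of the 2 starts of Tgfbr1), and in 42.2% of all. A match is a description of letters and not a site of binding, and a missing match says only that these letters are not in this window.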

How the data were processed

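Each deposited scanner file gives spot intensities from Agilent Feature Extraction 10.7.3.1 (the version is in the submitters' processing notes). Its log10 column is the red-to-green ratio, per the file headers. The series table that the authors deposited holds a score read as signed fold changes, since none lay between -1 and 1, with centring unstated. From the intensities, the background was corrected by normexp with an offset of 50, then loess was applied per array. Control spots had weight 0, and spots with an outlier flag (3.34% and 3.12%) were dropped. The dye labels set each ratio's direction, Rbpj-cKO divided by control, and each probe is the mean of its 4 spots. Kept probes had over 50% of spots well above background, in the same genotype, on each array, and a gene was represented by its brightest probe. Levels of single RNAs were scaled between arrays by Aquantile. Gene names came from RefSeq accessions where these matched (28328 of 39429 probes) and from the files otherwise.

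The test of log2 ratios against 0 used limma 3.58.1 (R 4.3.3) over all 21143 genes, at an adjusted p of 0.05. The pipeline was tested on simulated data. The file headers place both arrays on 1 slide and in 1 scan, so no batch could be fitted. The members and lists were chosen with earlier results of these data known. Of the lists, genes that passed the threshold or the 1.5-fold rule were named, and otherwise the 3 with the largest absolute mean ratio. Of a cell type list printed beside a result the 2 with the largest were named, unless only its medians or its count of measured markers are given. Any other gene named is marked as chosen after its values were seen. The alternatives covered background, normalization, filters, probe choice, variance model, a 4-channel fit, the deposited table and each array alone.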

Additional observations from a re-analysis of the deposited data

Results flagged for a closer look

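Spp1, osteopontin, which is on the list of TGF-beta targets, was higher in the Rbpj-cKO RNA of the pair labelled female and lower in that of the pair labelled male, by more than 1.5-fold each. The log2 ratios were 2.19 (array 1) and -1.17 (array 2). Each label has 1 pair, so the difference was not tested. The Rbpj-cKO RNA of the pair labelled female also held Y-linked transcripts (ratios of 4.23 for Ddx3y and 4.26 for Eif2s3y), so this is not a contrast between sexes.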

How the results depend on the processing

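Of the 9 genes, 8 kept the sign of their mean ratio under all 12 alternatives with both arrays, and 0 were called under any of them. Tgfbr2 had -0.0075 with median centring. Limma called 0 genes higher and 1 lower over all genes. With trend and robust settings these were 46 and 49, and with the 4-channel fit 15 and 23, while 0 were lower with the scanner's log ratio, with median centring, with scaling between arrays and with the deposited table. Genes at least 1.5-fold changed on both arrays were 243 higher and 264 lower by the scanner's log ratio. The deposited table gave 154 and 209. With 1 array left there is no test, and the ratio of each array stands beside the gene. The test was already paired, because each array compares a pair and its ratio was tested against 0. No further pairing was possible, as there is 1 group of ratios. The slide could not serve as a block because both arrays share it. The number of arrays, 2, limits the precision.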

Other observations

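Cdkn1a, which encodes the cell cycle inhibitor p21 and is a TGF-beta target, had probes that disagreed widely, which was noticed after the values were seen. The brightest probe, at chr17:29237377-29237436 (mm9), which the files list under transcript variants 1 and 2, gave 0.29 on array 1 and 0.30 on array 2. The probe listed under variant 2 and not under variant 1, at chr17:29227986-29228045, gave 1.39 and 2.08. Its levels were 7.65 and 9.05 for control and Rbpj-cKO on array 1, and 7.86 and 9.94 on array 2, so both Rbpj-cKO RNAs lay well above both controls. Another probe between them gave 0.11 and 0.00. The means were 0.29, 1.73 and 0.06, and only the brightest probe entered the test over genes.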
